A study of Mus musculus with 56 samples.

Results

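The genes described here are 5 effector chemokines, *Ccl3*, *Ccl4*, *Ccl5*, *Xcl1* and *Cxcl10*, followed through 7 sorted groups of mouse CD8+ T cells. They were chosen by name, as the 5 rows of the count table whose Ensembl identifiers carry these symbols, out of 55359 rows, and all 5 passed the filter on low counts. The cells were endogenous fetus/graft-specific CD8+ T cells (TFGS), that is, T cells stained by tetramers of an ovalbumin peptide on H-2Kb, from spleen and lymph nodes of female C57BL/6 mice. The mice were bought as young adults, and their age at sorting is not given in the sources used here. The experiment asked how a semi-allogeneic pregnancy changes naive and memory T cells of this specificity. Each sequenced sample held 200 live cells of a single mouse and subset, made into libraries with SmartSeq2, a full-length method that amplifies cDNA by PCR.

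Naive mice (3 samples) received no treatment. Sensitized mice (4 samples) carried memory TFGS after they had rejected an allogeneic skin graft from a 2W-OVA.BALB/c donor. Naive+Pregnancy (N+P) mice had a semi-allogeneic pregnancy sired by a 2W-OVA.BALB/c male, and Sensitized+Pregnancy (S+P) mice had the graft and then the pregnancy. Cells of both pregnant groups were sorted in the first days after birth. The PD1-negative subset is named C1 in N+P mice (3 samples) and C4 in S+P mice (6 samples), the PD1+CD73+ subset is C5 in both (3 N+P and 6 S+P samples), and the PD1+CD73-negative subset C7 was sorted from S+P mice (5 samples). Because each sample is a bulk of cells, fewer cells making a transcript and less transcript per cell cannot be told apart.

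Chemokines are small secreted proteins that attract leukocytes through G protein-coupled receptors. CCL3, CCL4 and CCL5 are CC chemokines that activated CD8+ T cells and NK cells are known to secrete. CCL5 transcripts are typical of effector and memory CD8+ T cells. XCL1, or lymphotactin, is a C chemokine whose receptor XCR1 marks cross-presenting dendritic cells, and CXCL10 is a CXC chemokine, induced by interferon-γ in many cell types, that attracts cells carrying CXCR3.

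The genes lie on 3 mouse chromosomes (GRCm39, GENCODE M39), and all 5 are annotated as protein coding. *Ccl3* (chr11:83538670-83540191, minus strand) and *Ccl4* (chr11:83553383-83555509, plus strand) are neighbours that point away from each other. *Ccl5* (chr11:83416602-83425942, minus strand) lies on the same chromosome arm, *Xcl1* on chromosome 1 (chr1:164759213-164763096, minus strand) and *Cxcl10* on chromosome 5 (chr5:92494497-92496748, minus strand). On the opposite strand, 35.6% of the exon bases of *Ccl3* overlap the long non-coding gene *Gm53692*, 18.7% of those of *Xcl1* overlap *Gm20743*, and 5.91% of those of *Cxcl10* overlap *Art3*. The library kit does not mark strand, so reads from such a shared stretch cannot be assigned to one strand by the kit.

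The 250 bases before the canonical start site of each gene are printed 5′ to 3′ on the gene's own strand, so that genes whose levels varied together (*Ccl3* with *Ccl4*, *Xcl1* with *Cxcl10*) can be read side by side with *Ccl5*. Capitals mark matches, on either strand, to a TATA box (TATAAA), an NF-kB form (GGGANNTTC), an interferon-stimulated response element (GAAANNGAA), an AP-1 form (TGANTCA) or a RUNX form (TGTGGT). The windows are chr11:83540192-83540441 for *Ccl3*, chr11:83553133-83553382 for *Ccl4*, chr11:83421346-83421595 for *Ccl5*, chr1:164763097-164763346 for *Xcl1* and chr5:92496749-92496998 for *Cxcl10*, all in GRCm39. The window of *Ccl5* lies inside the gene's full span because a longer annotated transcript starts further upstream.
Ccl3: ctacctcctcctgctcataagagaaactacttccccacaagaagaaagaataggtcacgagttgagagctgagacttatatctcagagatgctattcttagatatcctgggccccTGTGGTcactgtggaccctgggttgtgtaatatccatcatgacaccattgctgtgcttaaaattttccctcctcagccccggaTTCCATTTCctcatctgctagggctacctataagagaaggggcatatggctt
Ccl4: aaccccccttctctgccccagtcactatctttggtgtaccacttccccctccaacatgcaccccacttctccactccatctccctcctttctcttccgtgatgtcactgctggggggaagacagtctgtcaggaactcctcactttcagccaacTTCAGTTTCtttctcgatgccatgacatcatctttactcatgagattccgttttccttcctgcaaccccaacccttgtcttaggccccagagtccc
Ccl5: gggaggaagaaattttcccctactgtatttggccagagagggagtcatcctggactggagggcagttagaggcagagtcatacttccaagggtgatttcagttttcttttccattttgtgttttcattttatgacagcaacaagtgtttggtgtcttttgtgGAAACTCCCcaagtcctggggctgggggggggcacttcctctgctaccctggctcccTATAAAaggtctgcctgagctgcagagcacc
Xcl1: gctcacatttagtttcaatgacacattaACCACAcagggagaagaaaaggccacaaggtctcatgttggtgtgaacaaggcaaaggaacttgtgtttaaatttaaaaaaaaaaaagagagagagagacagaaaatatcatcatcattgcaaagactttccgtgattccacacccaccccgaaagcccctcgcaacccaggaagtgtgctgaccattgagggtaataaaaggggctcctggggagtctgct
Cxcl10: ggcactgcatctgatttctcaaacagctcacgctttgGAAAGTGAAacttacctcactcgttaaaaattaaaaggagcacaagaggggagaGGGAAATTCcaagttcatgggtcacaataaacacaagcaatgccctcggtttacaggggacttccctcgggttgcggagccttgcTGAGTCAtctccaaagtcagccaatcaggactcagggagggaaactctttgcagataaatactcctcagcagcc

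Counting back from the start site, with -1 the base just before it, *Ccl5* held a TATA box at -31 to -26 and an NF-kB match at -88 to -80. *Cxcl10* held an interferon-stimulated response element match at -213 to -205, an NF-kB match at -159 to -151 and an AP-1 match at -74 to -68. *Ccl3* held a RUNX match at -135 to -130 and an interferon-stimulated response element match at -52 to -44, *Ccl4* an interferon-stimulated response element match at -96 to -88, and *Xcl1* a RUNX match at -222 to -217. Of the motifs in capitals, *Ccl3* and *Ccl4* shared the response element, and *Xcl1* and *Cxcl10* shared none. A shorter NFAT core (GGAAA), left in lower case, was present in all 5 windows, 2 times in *Ccl3*, 3 times in *Ccl5*, 3 times in *Cxcl10* and 1 time each in *Ccl4* and *Xcl1*. An NFAT core overlaps the response element in *Ccl3* and *Cxcl10*, and another overlaps the NF-kB form in *Ccl5* and *Cxcl10*.

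Among windows of the same length before 13556 protein-coding genes tested here, 8.25% held the TATA box, 3.39% the NF-kB form, 7.1% the interferon-stimulated response element, 4.67% the AP-1 form, 12.3% the RUNX form and 57.1% the NFAT core. A first search used forms of 10 letters, 1 base longer than the 9 used here, for NF-kB (1.38% of windows) and the interferon-stimulated response element (3.16%). With those, *Ccl5* and *Cxcl10* kept their NF-kB match and *Cxcl10* its response element, whereas *Ccl3* and *Ccl4* had no response element match. The letters were shortened after that first search was seen. The matches describe these letters and were not tested as binding sites.

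**Figure D1:**
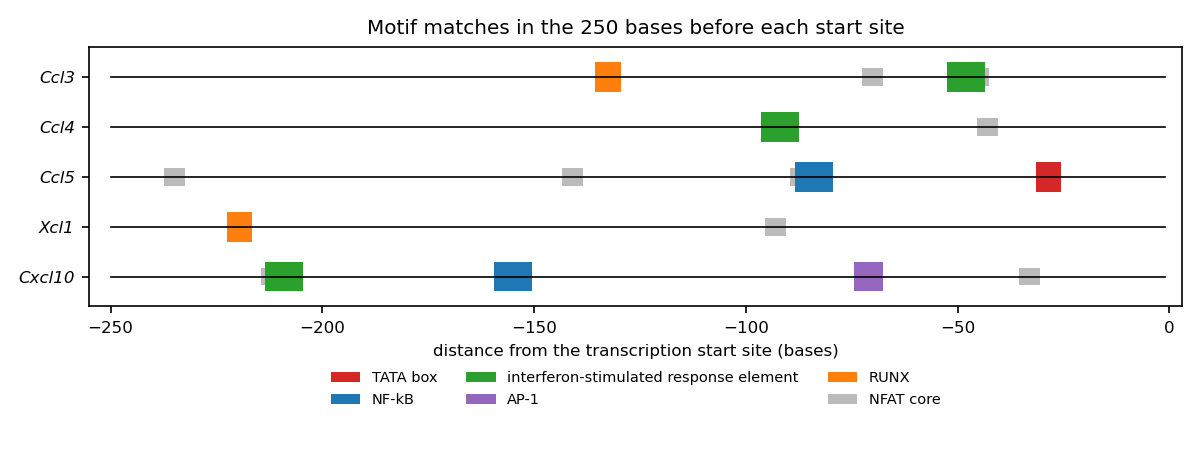
Position of each motif match in the 250 bases before the start site of the 5 genes, in bases from the start site (x axis), with 1 row per gene and 1 colour per motif. *Cxcl10* holds NF-kB, interferon-stimulated response element and AP-1 matches together, and *Ccl5* is the gene with a TATA box.

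In the libraries, 56 columns of 6636532 to 32625243 counts gave 30 samples of 15547934 to 54809406 counts after the 2 technical libraries of a sample were summed. A library found with identical counts in Naive replicate 1 and S+P C4 replicate 1 was left out of both, and S+P C7 replicates 1 and 2, which were nearly identical (r = 0.998 between their log2 values), were averaged and counted as 1 sample. Few genes were detected in replicates 2 (8002) and 3 (7436) of S+P C4 and in replicate 3 (7879) of S+P C7, against 12383 to 26805 in the other samples. Levels are CPM (counts scaled to a common library size) adjusted by TMM, a normalisation across samples, and errors are the SD over samples. All 9 CD8 T cell markers were detected in every group, with a summed level of 7238 to 16454 CPM.

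Per kilobase of exon, *Ccl5* had the highest mean level of the 5 genes in every group, and it was far higher in memory than in naive cells. The 3 Naive samples held 234, 119.5 and 126 CPM, and the 4 Sensitized samples 6617, 10752, 7456 and 5266 CPM. The 2 groups did not overlap, with means of 7522 ± 2334 (SD, n = 4) and 159.6 ± 64.2 (SD, n = 3) CPM. The log2 difference was 5.56 ± 0.80 (SE), with an adjusted p of 0.00138 in edgeR's quasi-likelihood test, past both thresholds (adjusted p under 0.1 and a log2 difference above 0.9).

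In cells of mice that had been pregnant without a graft, *Ccl5* was 554, 175 and 549.6 CPM in N+P C1 and 1073, 340.0 and 522 CPM in N+P C5. The N+P C5 samples were all above the Naive samples and all below the Sensitized samples, while N+P C1 overlapped Naive in 1 sample. The log2 difference from Naive was 2.02 ± 0.69 (SE) for N+P C5 (p = 0.00722 in edgeR, adjusted p = 0.764) and 1.42 ± 0.68 for N+P C1 (p = 0.0468, adjusted p = 0.997), and neither passed after adjustment. The log2 difference of N+P C5 from Sensitized was -3.54 ± 0.72 (p = 3.98e-05 in edgeR, adjusted p = 0.261).

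In cells of grafted and pregnant mice, *Ccl5* ranged from 2775 to 22079 CPM in S+P C4 (median 14281, 6 samples) and from 1064 to 7481 CPM in S+P C5 (median 2894, 6 samples). The 5 S+P C7 samples held 18001, 16543, 8038, 4622 and 11072 CPM. S+P C4 and C7 overlapped Sensitized on both sides, and S+P C5 was the lowest of the memory groups on average, 3517 ± 2440 (SD, n = 6) CPM, with 3 of its samples above the lowest S+P C4 sample and 2 above the lowest S+P C7 sample. S+P C5 also overlapped Sensitized, as its highest sample (7481 CPM) lay above the Sensitized samples at 5266, 6617 and 7456 CPM.

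The log2 difference of S+P C5 was -1.86 ± 0.49 (SE) from S+P C4 (p = 0.00073 in edgeR, adjusted p = 0.297) and -1.10 ± 0.52 from Sensitized (p = 0.0444, adjusted p = 0.366), and S+P C7 was 1.73 ± 0.50 above S+P C5 (p = 0.00186, adjusted p = 0.278). None of these 3 differences passed after adjustment over all genes. With the mouse as a block, S+P C7 against S+P C5 gave 2.14 and passed (adjusted p = 0.021 in edgeR), and it gave 2.02 (adjusted p = 0.282) and no longer passed when the averaged S+P C7 sample was assigned to mouse 2 in place of mouse 1, a choice added after the data were seen. Under either assignment, that sample also holds the other library of replicate 1. Against the matching subset without a graft, *Ccl5* was 4.91 ± 0.76 higher in S+P C4 than in N+P C1 (adjusted p = 0.00282 in edgeR, every sample above every N+P C1 sample), past both thresholds. S+P C5 was 2.45 ± 0.66 above N+P C5 (p = 0.00093, adjusted p = 0.809), where the lowest S+P sample (1064 CPM) lay just under the highest N+P sample (1073 CPM).

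*Ccl5* was also among the most abundant messages of the memory cells as a whole. On the scale of CPM per kilobase of annotated exon, its median rank over samples among 13556 protein-coding genes was 1 in Sensitized, S+P C4 and S+P C7, 8 in S+P C5 and 203 in Naive. It made up 1.28% of scaled counts on average in S+P C4. The exon length used, 1027 bases, merges all annotated transcripts of the gene, and levels per kilobase depend on that choice.

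*Ccl3* and *Ccl4*, 2 closely related macrophage inflammatory proteins, were highest on average in S+P C7 and lowest in N+P C1. *Ccl4* was 83.9, 97.9 and 3.70 CPM in Naive, 49.4, 50.2 and 38.9 CPM in N+P C1, 163, 149.8 and 31.5 CPM in N+P C5 and 276, 271, 407 and 91.5 CPM in Sensitized. It ranged from 2.08 to 1530.1 CPM in S+P C4 (median 763), from 189.7 to 752 CPM in S+P C5 (median 355), and was 1045, 1682, 921, 431 and 404 CPM in S+P C7. The S+P C4 sample at 2.08 CPM is replicate 3, the sample with the fewest detected genes, and the other 5 held at least 81.6 CPM.

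*Ccl4* was 2.08 ± 1.02 (SE) higher on the log2 scale in Sensitized than in Naive (p = 0.0494 in edgeR, adjusted p = 0.627), with 1 overlapping sample, and 3.84 ± 1.09 higher in S+P C4 than in N+P C1 (p = 0.00128, adjusted p = 0.44). Without S+P C4 replicate 3 the second difference was 4.08 and passed (adjusted p = 0.0381 in edgeR). Every S+P C5 sample was above every N+P C5 sample, 425 ± 207 (SD, n = 6) against 115 ± 72.4 (SD, n = 3) CPM. That difference did not reach an unadjusted p of 0.05 in edgeR (p = 0.0597).

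*Ccl3* was lower than *Ccl4* per kilobase in every group on average, for example 229 against 1305 CPM per kilobase in S+P C7. It was 50.6, 108 and 0 CPM in Naive, 2.38, 35.5 and 4.22 CPM in N+P C1, 36.5, 45.2 and 10.99 CPM in N+P C5, and 63.3, 57.3, 63.6 and 27.5 CPM in Sensitized. It ranged from 0.397 to 248 CPM in S+P C4 (median 76.4) and from 30.9 to 191 CPM in S+P C5 (median 62.6), and was 159, 224, 199, 106 and 202 CPM in S+P C7. All S+P C7 samples were above all Sensitized samples, with means of 178 ± 46.6 (SD, n = 5) and 52.9 ± 17.2 (SD, n = 4) CPM. For this difference edgeR gave p = 0.141. S+P C4 was 2.76 ± 1.35 (SE) above N+P C1 on the log2 scale (p = 0.0486, adjusted p = 0.537), with overlapping samples, and 4.85 above it without N+P C1 replicate 2, the sample at 35.5 CPM (adjusted p = 0.582 in edgeR).

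*Xcl1* was high in the PD1+CD73+ cells of both pregnant groups. The 3 N+P C5 samples held 222, 145 and 51.6 CPM, against 14.5, 11.5 and 4.91 CPM in Naive and 5.81, 13.2 and 11.5 CPM in N+P C1. Neither Naive nor N+P C1 overlapped N+P C5, whose mean was 139.7 ± 85.5 (SD, n = 3) CPM. The log2 difference was 3.76 ± 1.35 (SE) against Naive (p = 0.00889 in edgeR, adjusted p = 0.764) and 3.78 ± 1.35 against N+P C1 (p = 0.00864, adjusted p = 0.919).

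In memory cells, *Xcl1* was 37.4, 31.9, 32.96 and 35.2 CPM in the 4 Sensitized samples, a group with little spread that lay above all Naive samples (p = 0.155 in edgeR). It ranged from 138 to 783 CPM in S+P C5 (median 390.5) and from 0.0993 to 106 CPM in S+P C4 (median 36.4), and was 21.2, 0.420, 143, 242 and 62.3 CPM in S+P C7. The lowest S+P C5 sample was above every Sensitized and every S+P C4 sample, while S+P C7 overlapped C5 in 2 samples. The log2 difference of S+P C5 was 3.53 ± 1.12 (SE) from Sensitized (p = 0.00349 in edgeR, adjusted p = 0.277) and 3.03 ± 0.92 from S+P C4 (p = 0.00249, adjusted p = 0.297), and that of S+P C7 from C5 was -2.08 ± 0.95 (p = 0.0359, adjusted p = 0.335). The S+P C7 sample at 0.420 CPM and the S+P C4 sample at 0.0993 CPM are both among the 3 with few detected genes. Per kilobase, the median rank of *Xcl1* among the protein-coding genes was 27 in S+P C5, 88 in N+P C5 and 1188 in Naive.

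*Cxcl10* followed a similar order, at lower levels. The 3 N+P C5 samples held 38.2, 19.9 and 36.04 CPM, the Naive samples 0, 3.18 and 8.84 CPM, and the N+P C1 samples 0, 0.0348 and 0 CPM. N+P C5 stood above both groups without overlap. N+P C1 was at or under 3 counts in every sample, so N+P C5 was at least 300.1-fold higher by group mean (p = 0.00077 in edgeR, adjusted p = 0.919; 0.0871 with the mouse as a block), and Naive was at least 38.3-fold higher than N+P C1 (p = 0.00539, adjusted p = 0.997), although 1 of the 3 Naive samples was also at 0. Without Naive replicate 3, whose technical libraries held 15.2 and 0 CPM, the latter bound was 15.2-fold.

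In memory cells, *Cxcl10* was 13.2, 0.150, 5.40 and 12.7 CPM in Sensitized, from 0 to 96.8 CPM in S+P C4 (median 6.67, with 2 of 6 samples at 0), from 41.6 to 216 CPM in S+P C5 (median 115), and 5.31, 0, 59.0, 104 and 16.1 CPM in S+P C7. S+P C5 was above all Sensitized samples, 133 ± 66.8 (SD, n = 6) against 7.86 ± 6.26 (SD, n = 4) CPM. The log2 difference was 4.08 ± 1.77 (SE; p = 0.028 in edgeR, adjusted p = 0.311). It was also above all N+P C5 samples (p = 0.252). S+P C4 was at least 237.5-fold above N+P C1 by group mean (p = 0.00081, adjusted p = 0.374), and at least 99.8-fold without S+P C4 replicate 2, the sample at 96.8 CPM and one of those with few detected genes.

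**Figure D2:**
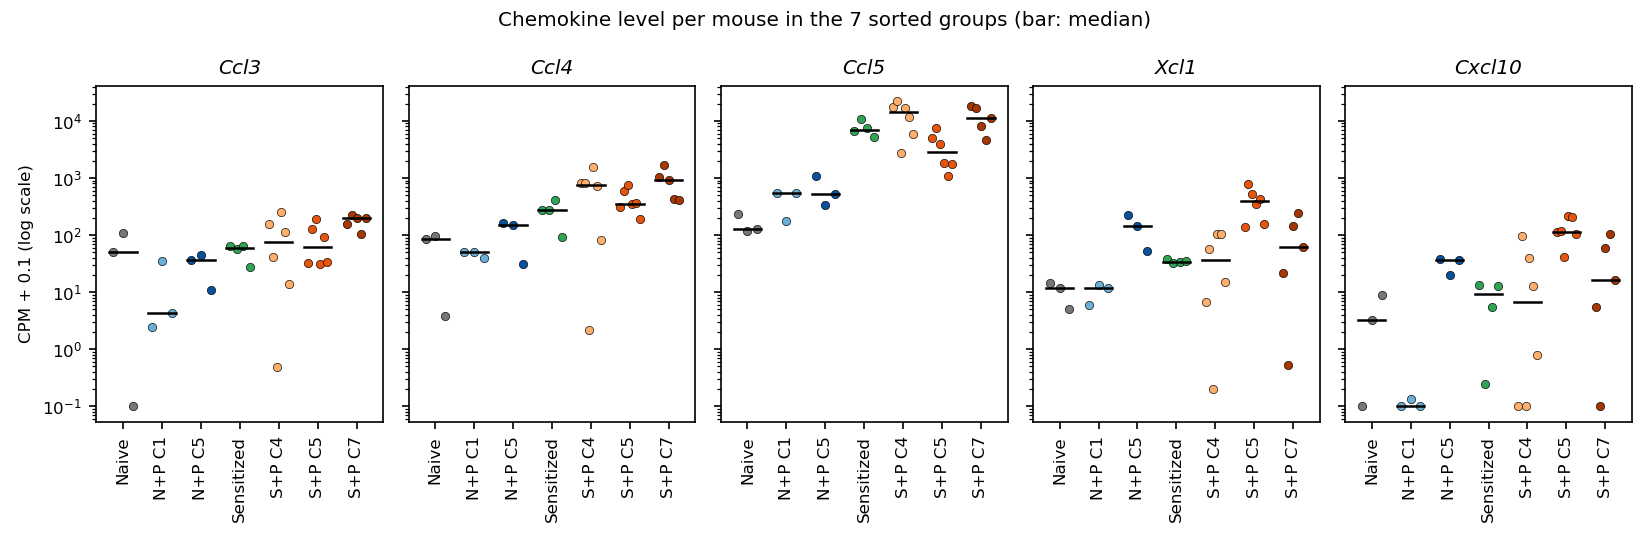
Level of each gene in every sample, 1 panel per gene, as CPM + 0.1 on a log10 axis (y) by sorted group (x). A bar marks the group median. *Ccl5* separates Naive and N+P samples (at most 1073 CPM) from Sensitized, S+P C4 and S+P C7 samples (at least 2775 CPM), whereas the highest group means of *Xcl1* and *Cxcl10* are those of S+P C5.

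Ordering the 7 groups by their mean, *Ccl3* and *Ccl4* both ran from S+P C7 through S+P C4, S+P C5 and Sensitized down to N+P C1, whereas *Xcl1* and *Cxcl10* were led by S+P C5 and ended with Naive and N+P C1. For *Ccl5* the order was S+P C4, S+P C7, Sensitized, S+P C5, N+P C5, N+P C1 and Naive. Neighbouring groups in these orders overlapped in their samples for all 5 genes, with the single exception of *Xcl1* in Sensitized over Naive. Over the 30 samples, log2(CPM + 1) of *Ccl3* and *Ccl4* had a Pearson r of 0.904 (0.894 over the 27 samples without those of few detected genes) and *Xcl1* and *Cxcl10* one of 0.855 (0.870), whereas *Ccl5* and *Xcl1* had 0.143 (0.299). The samples share groups and, within pregnant mice, animals, so these values are descriptions.

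Set against all 19657 genes tested, 2 of the 70 gene-by-comparison tests passed both thresholds, and the unadjusted p was under 0.05 in 22. In Sensitized against Naive, 1 of 5 passed both (*Ccl5*, higher; 0.153% of all genes) and 2 of 5 had p under 0.05 (7.82% of all genes), with a median log2 difference of 1.74 against 0.04 over all genes. In S+P C4 against N+P C1, 1 of 5 passed both (*Ccl5*, higher; 0.061%) and 4 of 5, all higher, had p under 0.05 (9.23%), with a median of 3.84 against -0.04. These 2 comparisons set memory cells against cells from mice without a graft.

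Among cells from mice without a graft, 0 of 5 passed both thresholds in N+P C1 against Naive (0.0% of all genes), N+P C5 against Naive (0.0407%) and N+P C5 against N+P C1 (0.00509%). With an unadjusted p under 0.05 in edgeR there were 2 of 5 in each, where all genes gave 3.23%, 5.33% and 4.31%. The median log2 difference over the 5 genes was -0.42, 2.02 and 1.31, and that over all genes 0.0 in each. Both genes were higher in the 2 comparisons of N+P C5, whereas in N+P C1 against Naive *Ccl5* was higher and *Cxcl10* lower. In DESeq2, 1, 2 and 2 of the 5 passed both thresholds in these 3 comparisons, and so did 749, 1017 and 834 of all 55359 genes.

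Between post-partum memory subsets and Sensitized cells, 0 of 5 passed both thresholds for S+P C4 (0.00509% of all genes), S+P C5 (0.0712%) and S+P C7 (0.0305%). With an unadjusted p under 0.05 in edgeR there were 0 of 5 for S+P C4 (12.7% of all genes), 3 of 5 for S+P C5 (13.0%; *Xcl1* and *Cxcl10* higher, *Ccl5* lower) and 0 of 5 for S+P C7 (10.2%). The median log2 differences were 0.85, 0.70 and 1.75. The medians over all genes were -0.14, -0.01 and 0.0. DESeq2 called 0, 1 and 0 of the 5, and 990, 1059 and 807 of all 55359 genes.

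Between the memory subsets themselves, 0 of 5 passed both thresholds in S+P C5 against C4 (0.0305% of all genes), S+P C7 against C4 (0.00509%) and S+P C7 against C5 (0.0%), with 2, 0 and 2 of 5 at an unadjusted p under 0.05 in edgeR (13.3%, 15.9% and 12.7% of all genes) and 2, 0 and 1 past both in DESeq2. *Xcl1* and *Ccl5* were the 2 genes with p under 0.05 in both, with differences of opposite sign. All genes had a median log2 difference of 0.11 in S+P C5 against C4 and 0.23 in S+P C7 against C4, where the 5 genes had -0.17 and 0.57.

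Across sensitization, S+P C5 against N+P C5 had 0 of 5 past both thresholds (0.0% of all genes; 1 in DESeq2) and 1 of 5, *Ccl5*, at an unadjusted p under 0.05 (5.88%). N+P C5 against Sensitized, priming by pregnancy against priming by graft, had 0 past both (0.0102%; 1 in DESeq2) and 1, *Ccl5*, at p under 0.05 (8.05%). In that comparison *Xcl1* and *Cxcl10* were higher in every N+P C5 sample than in every Sensitized sample, at edgeR p = 0.0846 and 0.263, while *Ccl5* was lower in every sample. The labels name no PD1+CD73+ subset for Sensitized cells, so the kind of priming and the sorted subset cannot be told apart there. For the difference between the pregnancy effects, S+P C5 against Sensitized minus N+P C5 against Naive, 0 of 5 passed both (0.0254%; 1 in DESeq2) and 1 of 5 had p under 0.05 (6.42%).

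**Figure D3:**
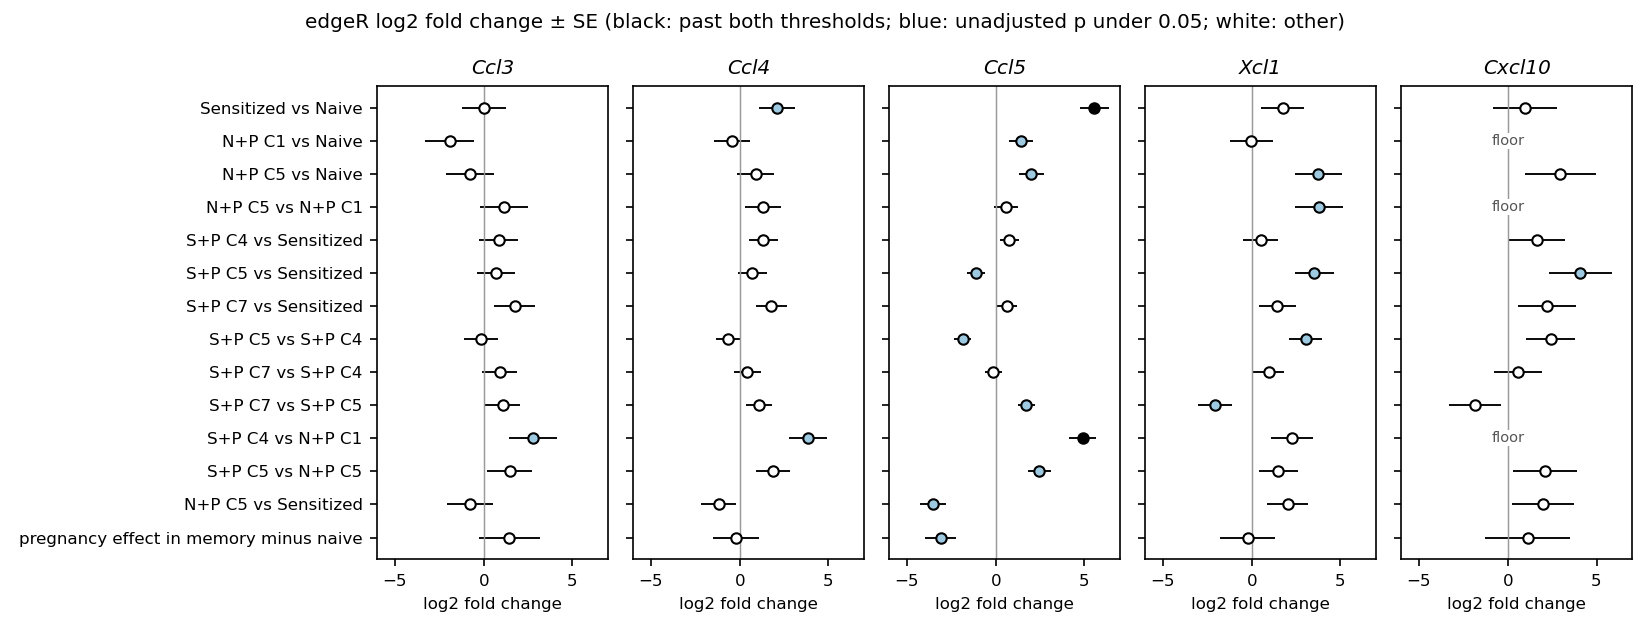
Log2 difference (x axis) of each gene (1 panel per gene) in each comparison (y axis), with bars of 1 SE, from the edgeR fit. Black symbols passed both thresholds, blue ones had only an unadjusted p under 0.05 in edgeR, and white ones had neither. The word "floor" marks comparisons in which a group was at or under 3 counts. *Ccl5* is past both thresholds in Sensitized against Naive (5.56) and S+P C4 against N+P C1 (4.91).

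Subsets with the same replicate number were taken to come from the same mouse, as the shared numbers and the preparation of cells from individual mice imply, which gives within-animal ratios. In S+P mice, *Ccl5*, *Ccl3* and *Ccl4* were higher in C7 than in C5 in 5 of 5 mice, and *Xcl1* and *Cxcl10* were lower in 5 of 5. The *Ccl5* ratio of C7 to C5 was 3.62 to 6.19 (median 4.32). The averaged C7 sample was set against mouse 1 here, and against mouse 2 its *Ccl5* ratio was 2.41, with every direction the same for the 5 genes. That sample also holds the other library of replicate 1, so its ratios to mouse 2 do not compare subsets of mouse 2 alone.

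Between C5 and C4 of the same S+P mice, *Xcl1* and *Cxcl10* were higher in C5 in 6 of 6 mice, with *Xcl1* ratios of 3.34 to 21.1 over the 5 mice in which both samples were above 3 counts. *Ccl5* was lower in C5 in 5 of 6, at ratios of 0.0896 to 0.339, and the exception was mouse 3, whose C4 sample had few detected genes (ratio 1.42). *Ccl3* and *Ccl4* split, with C5 higher in 3 and 2 of 6 mice. *Xcl1* was also higher in C7 than in C4 in 5 of 5 mice, with ratios of 1.35 to 4.17 over the 4 mice in which both samples were above 3 counts, or in 4 of 5 with the averaged C7 sample set against mouse 2 (ratio 0.365). In N+P mice, *Xcl1* was 4.47, 11.02 and 38.2 times higher in C5 than in C1, *Cxcl10* and *Ccl3* were higher in 3 of 3 mice, and *Ccl5* in 2 of 3.

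**Figure D4:**
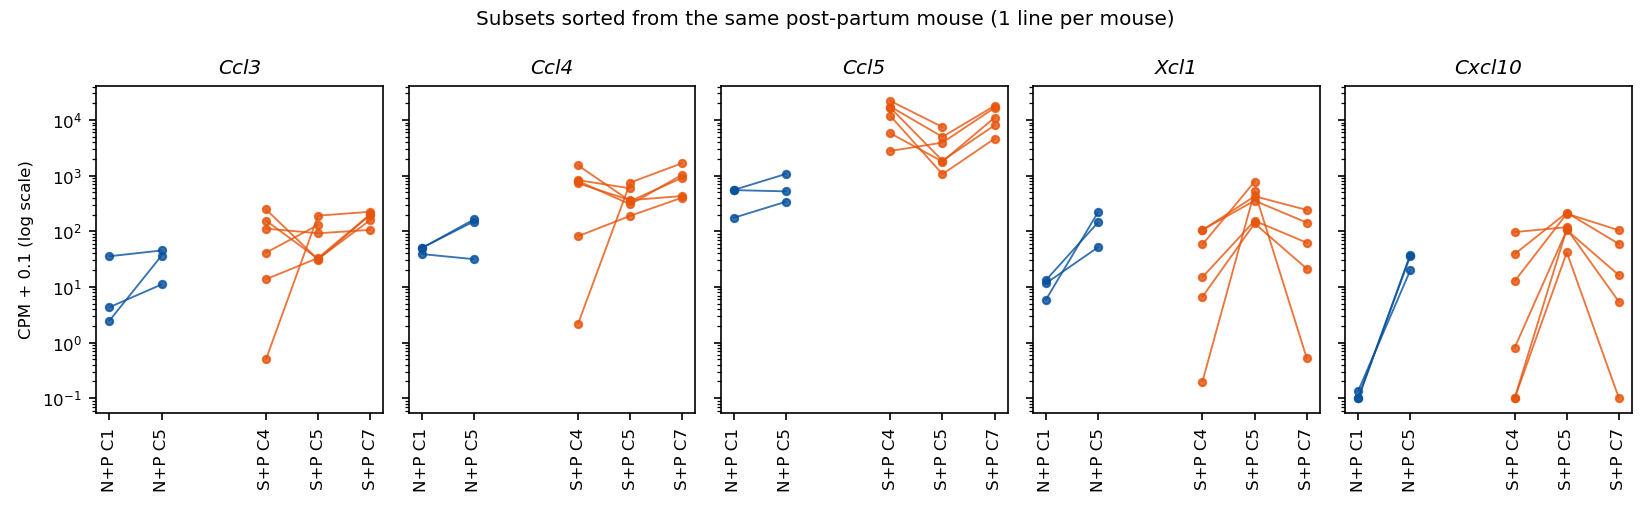
Levels of the 5 genes in subsets of the same post-partum mouse, as CPM + 0.1 on a log10 axis (y) by subset (x), with 1 line per mouse. From C5 to C7, all 5 lines rise for *Ccl5* and all 5 fall for *Xcl1*.

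Technical libraries of the same sample were compared for each gene. Over 22 pairs of libraries, the median fold between the 2 libraries was 1.37 for *Ccl5* (largest 3.10), 1.37 for *Ccl4* (largest 29.4), 1.48 for *Ccl3* (largest 9.88), 1.98 for *Xcl1* (largest 7.81) and 1.54 for *Cxcl10* (largest 7.85). In 5 pairs for *Cxcl10* and 2 pairs for *Ccl3*, a library was at or under 3 counts while its partner was above. The fold of 29.4 arose in Naive replicate 2, at 156 and 5.30 CPM of *Ccl4*. PCR reads without molecular identifiers are not independent molecules, and the floor of 3 counts covers counting error only.

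**Figure D5:**
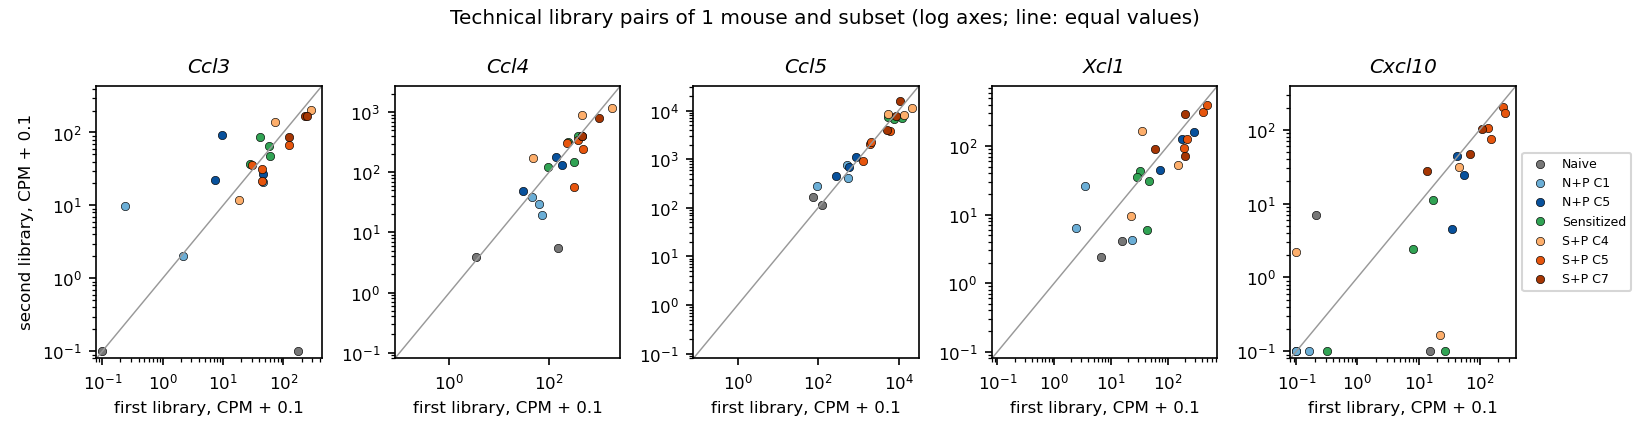
CPM of each gene in the first (x axis) and second (y axis) technical library of the same sample, both on log10 axes, for 22 pairs. *Ccl5* pairs lie within 3.10-fold of the diagonal, whereas *Cxcl10* and *Xcl1* pairs scatter more widely.

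Of the receptors of these chemokines, *Cxcr3*, the receptor of CXCL10, rose in Sensitized cells. *Cxcr3* was 48.1 ± 6.19 (SD, n = 3) CPM in Naive and 383 ± 97.6 (SD, n = 4) CPM in Sensitized, a log2 difference of 2.99 ± 0.64 (SE, adjusted p = 0.0488 in edgeR). It was 385 ± 74.1 CPM in N+P C5 and 475 ± 176 CPM in S+P C5, and 1 of 4 receptors tested, of 7 listed, passed in Sensitized against Naive and 0 in the other 13 comparisons, where 10 of the tests had p under 0.05 in the higher direction and 4 in the lower and DESeq2 made 6 calls higher and 2 lower. *Xcr1*, the XCL1 receptor, was at most 23.1 CPM outside S+P C7, where 1 sample, replicate 3, held 349 CPM. Few genes were detected in that sample. Its dendritic cell markers, a list that includes *Xcr1*, summed to 602 CPM, against a median of 12.0 CPM over S+P C7. The median log2 difference of the receptors tested was 6.27 in Sensitized against Naive (5.43 with groups at the floor set to 3 counts), against 0.04 over all genes.

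Of 11 effector cytokine and granule genes, 4 passed both thresholds in Sensitized against Naive, all higher, with a list median of 4.19. *Nkg7*, a granule protein gene, was 1.68 ± 0.30 (SE) higher on the log2 scale (adjusted p = 0.00547 in edgeR), *Fasl*, the death ligand, 6.12 ± 1.33 (adjusted p = 0.0566) and *Ifng* 4.84 ± 1.10 (adjusted p = 0.0826). *Gzmk*, a granzyme, was 133 ± 57.8 (SD, n = 4) CPM in Sensitized and at most 0.151 CPM in Naive. *Gzmk* also passed in N+P C5 against Naive, at 15.5 ± 3.92 (SD, n = 3) CPM, and *Nkg7* in S+P C4 against N+P C1, 1.90 ± 0.29 higher (adjusted p = 0.00167). In the other 11 comparisons 0 of 11 passed in edgeR, although tests with p under 0.05 were found in both directions. Over all 14 comparisons the list gave 33 tests with p under 0.05 in the higher and 12 in the lower direction, and 23 higher and 6 lower calls in DESeq2.

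In S+P C5, *Prf1*, the perforin gene, and *Fasl* were below S+P C4 and Sensitized at an unadjusted p under 0.05. *Prf1* was 92.4 ± 55.8 (SD, n = 6) CPM in S+P C5, against 351 ± 271 in S+P C4 (SD, n = 6), 317 ± 195 in S+P C7 (SD, n = 5) and 231 ± 84.5 in Sensitized (SD, n = 4). Its log2 difference was -1.92 ± 0.46 (SE) from S+P C4 (adjusted p = 0.208 in edgeR) and 1.78 ± 0.47 for S+P C7 over C5 (adjusted p = 0.278), neither past the threshold in edgeR and both called in DESeq2. *Ifng* was 145 ± 74.9 CPM in S+P C5 and 97.0 ± 57.1 CPM in Sensitized.

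Of 14 transcription factors of effector cells, 3 passed both thresholds in Sensitized against Naive, all higher, with a list median of 0.81. They were *Id2*, an inhibitor of E proteins (2.46 ± 0.40 (SE) on the log2 scale, adjusted p = 0.00217 in edgeR), *Bhlhe40* (188 ± 93.6 (SD, n = 4) CPM against at most 0.206 in Naive) and *Zeb2* (122 ± 55.9 CPM against at most 0.166). *Bhlhe40* also passed in N+P C5 against Naive, at 239 ± 123 (SD, n = 3) CPM, and, as the single call in the lower direction over these gene lists, in the difference between the pregnancy effects (adjusted p = 0.0529). *Id2* passed in S+P C4 against N+P C1 (1.94 ± 0.37, adjusted p = 0.0263). *Nfatc1* was 324 ± 62.4 (SD, n = 6) CPM in S+P C5 and 121 ± 21.9 (SD, n = 4) in Sensitized. It did not pass in edgeR (p = 0.000308, adjusted p = 0.205) and was called in DESeq2. Over all 14 comparisons the list gave 26 tests with p under 0.05 in the higher and 12 in the lower direction in edgeR, and 20 higher and 6 lower calls in DESeq2.

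Interferon response genes, early T cell receptor response genes and other chemokine ligands gave 0 calls in edgeR in all 14 comparisons. Of 19 interferon response genes tested, of 21 listed, 5 tests had an unadjusted p under 0.05 in edgeR in the higher and 12 in the lower direction over the 14 comparisons, and DESeq2 made 2 calls higher and 5 lower. In S+P C5 against S+P C4, where *Cxcl10* was higher in 6 of 6 mice, *Usp18* was 36.7 ± 10.9 (SD, n = 6) against 109 ± 89.6 CPM. It did not pass (p = 0.0072 in edgeR, before adjustment). *Cxcl9*, another interferon-γ-induced ligand of CXCR3, was at most 1.69 CPM in every sample. The 13 early receptor response genes gave 1 test with p under 0.05 over the 14 comparisons, *Cd69* lower in S+P C7 than in S+P C4, and 0 calls in DESeq2.

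Among 33 other chemokine ligands, 9 were abundant enough to test, with 14 tests at p under 0.05 in the higher and 11 in the lower direction and 12 higher and 7 lower calls in DESeq2 over the 14 comparisons. *Ccl1* was 0 CPM in all Naive, N+P C1, Sensitized and S+P C4 samples and reached 22.4 CPM in 1 N+P C5 and 121 CPM in 1 S+P C5 sample. *Cxcl13* was 3.44 ± 6.81 (SD, n = 6) CPM in S+P C5, with 0 in Sensitized and S+P C7. *Ccl9* was 66.8 ± 67.1 CPM in S+P C4 and 2.78 ± 6.82 in S+P C5. The list's median log2 difference was 0.0 in Sensitized against Naive (0.28 with groups at the floor set to 3 counts) and -1.14 in S+P C5 against Sensitized (-0.32).

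The genes whose log2(CPM + 1) over the 30 samples was most like that of *Ccl5* were *Nkg7* (Pearson r = 0.932), *Lgals1* (0.930), *Id2* (0.905), *Osbpl3* (0.896) and *Klrk1* (0.894), and over the 27 samples with more detected genes all of these stayed among the first 8. For *Xcl1* they were *Eea1* (0.880), *Ptpn11* (0.868), *Cxcl10* (0.855), *Cd22* (0.855) and *Cd200* (0.853), and for *Cxcl10* they were *Xcl1*, *Icos* (0.849), *Serpina3f* (0.814), *Tox2* (0.799) and *Tigit* (0.797). *Ccl3* and *Ccl4* were each other's nearest gene. After each other, *Ccl3* was followed by *Serpinb9* (0.732), *Asap2* (0.725), *S100a13* (0.709) and *Slc66a3* (0.704), and *Ccl4* by *Slc66a3* (0.841), *Serpinb9* (0.838), *Ndfip2* (0.831) and *Plek* (0.830). Over the 27 samples *Eea1*, *Ptpn11* and *Cd200* fell to order 10, 28 and 11 for *Xcl1*, and *Icos*, *Serpina3f* and *Tigit* to 6, 18 and 15 for *Cxcl10*, while *Serpinb9* and *Slc66a3* fell to order 20 and 36 for *Ccl3* and to 36 and 34 for *Ccl4*.

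The summed level of 5 NK cell markers was 1.93 to 5.84 CPM in Naive, 73.3 to 172 CPM in Sensitized, 3.57 to 190 CPM in S+P C4 and 8.75 to 84.4 CPM in S+P C5 and 30.3 to 597 CPM in S+P C7, and *Ncr1* and *Klra8* were at 0 in every S+P C5 sample. The memory groups thus had more of both *Ccl5* and NK cell markers than Naive did, and the part of NK cells in the *Ccl5* levels was not tested. The cells had been enriched for T cells and sorted as tetramer-stained CD8+ cells. B cell markers summed to 671 to 1370 CPM in Naive, 716 to 809 CPM in N+P C1 and 418 to 1377 CPM in N+P C5. Their sums were 221 to 394 CPM in Sensitized, 1.198 to 477 CPM in S+P C4 and 223 to 464 CPM in S+P C5. *Ms4a1* and *Pax5* were at 0 in every Sensitized and S+P C5 sample, and *Cd22*, one of the genes most like *Xcl1*, is itself one of the 7 B cell markers. The part of B cells in these results was not tested. S+P C7 replicate 3 stood apart, with summed levels of 8234 CPM for B cell, 6729 CPM for myeloid, 602 CPM for dendritic and 17761 CPM for red cell or platelet markers, against medians of 186, 214, 12.0 and 0.489 CPM over S+P C7. That sample held 16543 CPM of *Ccl5* and 0.420 CPM of *Xcl1*.

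Without the 3 samples of few detected genes, among them S+P C7 replicate 3, the *Ccl5* differences past both thresholds were 5.55 in Sensitized against Naive and 4.93 in S+P C4 against N+P C1. S+P C7 over C5 was then 1.55 for *Ccl5* and -1.78 for *Xcl1*. With those samples left out, *Xcl1* passed both thresholds in N+P C5 against Naive (3.78, adjusted p = 0.0485 in edgeR) and in S+P C5 against Sensitized (3.55, adjusted p = 0.0142), and *Ccl5* in N+P C5 against Sensitized (-3.51, adjusted p = 0.0206).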

How the data were processed

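The deposited table held raw counts per gene for 56 columns, made by the authors, per the labels and the study's methods, by trimming with cutadapt 3.4, aligning with STAR 2.6.1b to GRCm39 and counting uniquely mapped reads with featureCounts 2.0.1. The annotation release and strand setting are not given in the sources used here. Of 55359 identifiers, 54749 were found in GENCODE M39, which gave symbols and coordinates. Of the column names, 4 differ from the labels in their technical letter.

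The 2 technical libraries of a sample were summed, identical and nearly identical libraries were treated as stated above, and all 7 groups entered a single edgeR 4.0.16 quasi-likelihood fit in R 4.3.3 (TMM, filterByExpr with a minimum count of 10, robust), two-sided, with Benjamini-Hochberg adjustment over 19657 genes and, as in the study's methods, thresholds of adjusted p under 0.1 and an absolute log2 difference above 0.9. SE is the log2 difference divided by the root of the F statistic. Fold differences were printed for unadjusted p under 0.05, and listed genes were named when past both thresholds or among the 3 smallest p under 0.05, and *Cxcl9*, the single-sample *Xcr1* level and the *Ifng* levels in S+P C5 and Sensitized were added after their values were seen. Some listed genes that this rule would name are not reported here. Likeness used the 5 highest Pearson correlations. The 5 genes and all lists were chosen with earlier results of these data known.

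Whether samples with the same replicate number deviate together was checked by the correlation of their deviations from the group means: its mean was 0.0749 in N+P C5 and C1, 0.139 in S+P C5 and C4, 0.193 in S+P C7 and C4 and 0.157 in S+P C7 and C5, against -0.0374 to -0.0183 between other numbers. Samples of different mice that share a number had means of 0.0113 to 0.0735, so the N+P value is hardly above what a shared number alone gave. The methods state that cells were prepared from individual mice, and the study pooled 2 experiments whose assignment to mice the labels do not give. The number of samples per group follows the labels, except that replicates 1 and 2 of S+P C7 were counted as 1 sample. The labels list more replicates of S+P C4, C5 and C7 than the study's legends state. In the main fit, p-values rest on a spread per gene estimated over all 7 groups, not on the compared samples alone. Subsets of the same mouse entered that fit as separate samples. Alternatives were DESeq2 1.42.0, other scalings, filters and thresholds, technical libraries kept separate, all 56 columns kept, the replicate block, fits of the compared groups only, and leaving out samples. The fit was tested on simulated data with 200 changed genes. Promoters were read from GRCm39 in Python 3.11.15.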

Additional observations from a re-analysis of the deposited data

Results flagged for a closer look

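Read in the PD1+CD73+ subset C5, the pregnancy effect on *Ccl5* was of opposite sign in memory and naive cells by group mean. Neither effect passed after adjustment (adjusted p = 0.366 in memory and 0.764 in naive cells in edgeR). The other post-partum subsets did not show opposite signs. S+P C4 (12777 CPM) and S+P C7 (11655 CPM) had higher means than Sensitized (7522 CPM). N+P C1 (426 CPM) had a higher mean than Naive (159.6 CPM). All 6 S+P C5 samples were below the Sensitized mean, 1 of them (7481 against 7522 CPM) only just, and all 3 N+P C5 samples were above the Naive mean. The S+P C5 sample at 7481 CPM lay above the Sensitized samples at 5266, 6617 and 7456 CPM, so S+P C5 and Sensitized overlapped. The difference between the 2 effects was -3.11 ± 0.86 (SE) on the log2 scale, with p = 0.00131 and, after adjustment over all genes, 0.649 in edgeR, so it did not pass. Its value ranged from -3.49 to -2.53 over the alternatives, and 3 of them called it. The S+P C5 and N+P C5 cells are a PD1+CD73+ subset, and the labels name no such subset for Sensitized and Naive cells, so pregnancy and subset cannot be told apart in this comparison. No value of the 5 genes stood apart from the rest of its group in the 20 sets of 4 to 6 samples tested, where chance gives about 1 in 20.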

How the results depend on the processing

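Of 436 values of the 5 genes' log2 differences under alternatives, 370 stayed on the same side of both thresholds, 64 moved past them, 2 lost the call and 0 changed sign. Of 314 counts of genes past both thresholds, 45 moved. With DESeq2 on summed libraries the counts were 1 for N+P C1 against Naive (*Cxcl10*, lower), 2 for N+P C5 over either Naive or N+P C1, 1 in S+P C5 against Sensitized, 2 in S+P C5 against S+P C4, 1 in S+P C7 against S+P C5, 3 in S+P C4 against N+P C1, and 1 each in S+P C5 against N+P C5, N+P C5 against Sensitized and the difference between pregnancy effects. With DESeq2 on separate technical libraries, in the same order (N+P C5 over Naive and over N+P C1 given singly), the counts of the 5 genes were 2, 2, 2, 3, 2, 1, 5, 1, 2 and 1, and 2 in Sensitized against Naive. All genes gave 601, 1002, 766, 977, 813, 428, 1100, 540, 884 and 848 calls in that order, and 1022 in Sensitized against Naive. With edgeR on separate libraries the counts of the 5 genes were 2, 2, 3, 2, 1, 3, 1, 1 and 1 in that order without N+P C1 against Naive. All 16535 genes tested there gave 108, 28, 1134, 789, 489, 480, 57, 146 and 165 calls, but such libraries are not separate mice. Fitting the compared groups only gave 2 in N+P C5 against N+P C1 (51 of all 13219 genes), 2 in S+P C5 against Sensitized (142 of 13427) and 1 in N+P C5 against Sensitized (45 of 13535). Leaving out the 3 samples of few detected genes (under 9000), 1 passed in N+P C5 against Naive (120 of all 19553 genes), 1 in S+P C5 against Sensitized (199), 3 for S+P C4 over N+P C1 (138), and 1 for N+P C5 against Sensitized (33), where having no filter (2 of all 40335 genes) or requiring a mean of 10 CPM (3 of 8297) also gave 1. Leaving out 1 sample at a time gave 1 to 2 in S+P C4 against N+P C1 (2, *Ccl5* and *Ccl4*, without S+P C4 replicate 3, where 34 of all 19629 genes passed) and the same counts in the other comparisons. The cause of these changes was not tested.

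With the replicate block, *Ccl5* passed in S+P C7 against S+P C5 (a count of 1) and *Cxcl10* in N+P C5 against N+P C1 (1), comparisons of subsets of the same mice, and it changed no other call among those. In these 2 comparisons the block called 1 of all 12987 and 29 of all 13219 genes. With the averaged S+P C7 sample as replicate 2, added after the data were seen, 0 of the 5 passed in S+P C7 against S+P C5 (1 of all 12987 genes). In comparisons of different mice, samples with the same number had mean correlations of 0.0113 to 0.0735, against -0.0227 to -0.000352 between other numbers. What a shared number stands for there is not known. In those comparisons the block gave 0 in Sensitized against Naive (*Ccl5*, adjusted p = 0.13 in edgeR; 2 of all 13333 genes passed) and 1 in N+P C5 against Naive (*Xcl1*, with 11 of all 13008 genes). The block gave 0 in S+P C4 against N+P C1 (*Ccl5*, adjusted p = 0.562 in edgeR), where 12 of all 13589 genes passed. Groups of 3 samples, 200 cells a sample and technical libraries that differ limit what the rarer transcripts *Cxcl10* and *Ccl3* can show.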
